A study of Mus musculus with 12 samples.

Results

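The effect of 12 weeks of high-fat diet (HFD) on brown fat at 22 °C was described from 6 of the 12 libraries of the series. These were the 3 libraries of mice on HFD at 22 °C and the 3 libraries of mice on control diet (NCD) at 22 °C, chosen by their labels, and all genes of the table were included. All mice were wild type C57BL/6N, 20 weeks old at the end, and had eaten chow up to the age of 8 weeks. The HFD mice then received the diet Ssniff D12492 (I) mod., and the labels give the other groups only as NCD. Neither of these groups was kept in the cold. The other 6 libraries came from mice on the same diets that spent 24 h at 4 °C, and the same diet contrast was looked at in them. All 12 libraries were filtered, scaled and fitted together. The estimate of the spread behind each test at 22 °C therefore also rests on the libraries at 4 °C. The tissue is labelled iBAT, which the study's methods give as interscapular and the series description as inguinal brown adipose tissue. The sources used here do not say whether each library was 1 mouse, so the p-values below measure the spread between these libraries.

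Brown adipose tissue burns fatty acids and glucose to make heat, through the uncoupling protein UCP1 in the inner membrane of its mitochondria. It takes fatty acids from circulating lipoproteins and also makes them from glucose, by de novo lipogenesis, in which citrate leaves the mitochondrion and is turned into acetyl-CoA, malonyl-CoA and palmitate. The enzymes of this pathway and those of cholesterol synthesis are under the control of the sterol regulatory element-binding proteins, which stay inactive in the endoplasmic reticulum when sterols are plentiful.

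The 6 libraries held 15136861 to 43399595 counts, with 1 library of each diet, replicate 3, in a second batch by the labels and at the higher depth. Levels are given as CPM, the counts of a gene scaled to the library total, after TMM normalisation, listed for replicates 1, 2 and 3, and log2 fold changes are followed by their SE after the sign ±. The brown fat markers Ucp1 and Cidea were at no less than 3789 and 1049.8 CPM in each of the 6 libraries. Skeletal muscle RNA differed between libraries within each diet. The summed level of 21 sarcomere and other muscle genes was 40176 CPM in NCD replicate 2 and 67403 CPM in HFD replicate 3, against 4770 to 7711 CPM in the other 4 libraries. These 2 libraries belong to opposite diets, and none of the 21 muscle genes passed the test between the diets. Counts of red blood cell genes summed to 1235 to 1800 CPM on NCD and 818 to 1184 CPM on HFD. In a bulk sample, fewer cells of a type and less RNA per cell cannot be told apart.

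Of 16737 genes tested, 349 (2.09%) differed between HFD and NCD at 22 °C, by edgeR's quasi-likelihood test. The threshold was a Benjamini-Hochberg adjusted p of 0.05 together with a log2 fold change beyond 0.5 in either direction. In the following such genes are termed called. On HFD 166 genes (0.992%) were higher, 133 of them coding and 32 lncRNA, and 183 genes (1.09%) were lower, 170 of them coding and 12 lncRNA. The median log2 fold change of all tested genes was 0.03. The groups did not overlap in any of the 349 called genes, as was the case in 25.9% of all tested genes. With only the 6 libraries compared in the fit, 264 genes were called, and 207 of the 349 were among them. Without 1 library at a time, between 117 (without HFD replicate 2) and 286 (without HFD replicate 1) genes were called. Of the 349 genes, 84 were called in each of these 6 fits and with batch as a term, 33 higher and 51 lower, and are termed stable below. With a muscle score as a term, 347 of the 349 genes were called, all 84 among them.

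Genes were grouped in 50 lists of pathways and cell type markers, in which 906 genes were tested and 54 were called. Over all tested genes, 349 of 16737 (2.09%) were called. The lists were chosen with earlier results of these data known, so the counts in them are descriptions and not a test. In 22 lists no gene was called and in 3 lists more than 3 were. These 3 were the enzymes of fatty acid synthesis and of cholesterol synthesis and the proteins of fatty acid uptake.

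**Figure D1:**
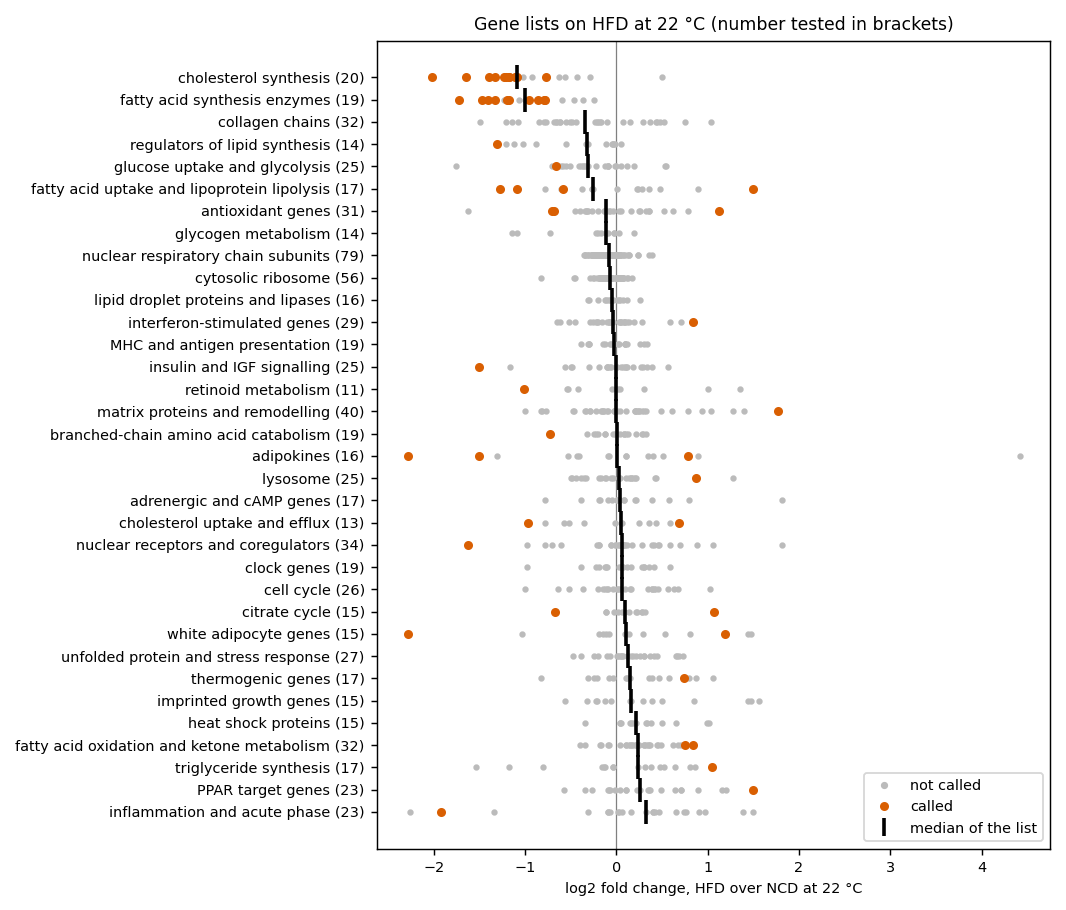
Log2 fold change of HFD over NCD at 22 °C (x axis) for each tested gene of the pathway lists with at least 10 tested genes, the number tested in brackets. Orange points are called genes, grey points are not, and the black bar is the median of the list. The lists of cholesterol synthesis (median -1.09) and fatty acid synthesis (median -1.01) lie to the left of all others.

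Genes of fatty acid synthesis were lower on HFD. The list held 19 enzymes and carriers, elongases and desaturases among them. All 19 had a negative log2 fold change, 10 were called lower and none higher, with a median of -1.01. Scd1, the stearoyl-CoA desaturase that makes oleate and palmitoleate, was the gene with the largest fall in this list. Its level was 130397, 109364 and 115288 CPM on NCD and 50725, 30658 and 25889.7 CPM on HFD, with a log2 fold change of -1.73 ± 0.27, adjusted p = 0.00887. The 3 HFD libraries were all below the lowest NCD library. Counts on Scd1 alone made up 10.2% to 11.7% of each NCD library and 2.69% to 5.20% of each HFD library. The gene lies at chr19:44394455-44407879 (GRCm38).

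Me1, the cytosolic malic enzyme that supplies NADPH, was at 2102, 1748 and 1899 CPM on NCD and 912, 596 and 556 CPM on HFD. It fell by 1.48 ± 0.19 on the log2 scale, adjusted p = 0.00342, and HFD replicate 1 was the highest of the HFD libraries, as it was for Scd1. Elovl5, an elongase of polyunsaturated fatty acids, was at 246, 181 and 197 CPM on NCD and 100.3, 77.8 and 70.2 CPM on HFD, with a log2 fold change of -1.33 ± 0.20, adjusted p = 0.00824. Its groups did not overlap. Further genes of the list were called lower: the mitochondrial citrate carrier Slc25a1 (-1.19), the acetyl-CoA synthetase Acss2 (-1.40), the elongase Elovl6 (-1.17), the enoyl reductase Tecr (-0.96), glucose-6-phosphate dehydrogenase G6pdx (-0.86), the acetyl-CoA carboxylase Acacb (-0.80) and the desaturase Fads2 (-0.78). These values are log2 fold changes. The calls on these 7 genes were each lost without at least 1 library, and that on Acacb in all 6 such fits.

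The central enzymes did not pass the test. ATP citrate lyase Acly had a log2 fold change of -1.23 ± 0.33, adjusted p = 0.0814. Acetyl-CoA carboxylase Acaca had one of -1.06 ± 0.25, adjusted p = 0.0539, and fatty acid synthase Fasn one of -1.01 ± 0.30, adjusted p = 0.107. The levels of Fasn were 58376, 54549 and 61529.9 CPM on NCD and 37253, 25229 and 24300.0 CPM on HFD. In all 3 genes each HFD library was below each NCD library.

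Me1 and Elovl5 were stable. The call on Scd1 was lost without HFD replicate 2 (range over the 6 fits -2.10 to -1.54). Without NCD replicate 1, 3 of the 19 genes were called lower, without NCD replicate 2, 6, and without NCD replicate 3, 4. Without HFD replicate 1, 13 were called, without HFD replicate 2, 2, and without HFD replicate 3, 3. The median over the list stayed between -1.27 and -0.90 in these fits. Within batch 1, with 2 libraries for each diet, the median was -0.92, all 19 genes pointed down and none was called. Batch 2 holds 1 library of each diet and gives no test.

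**Figure D2:**
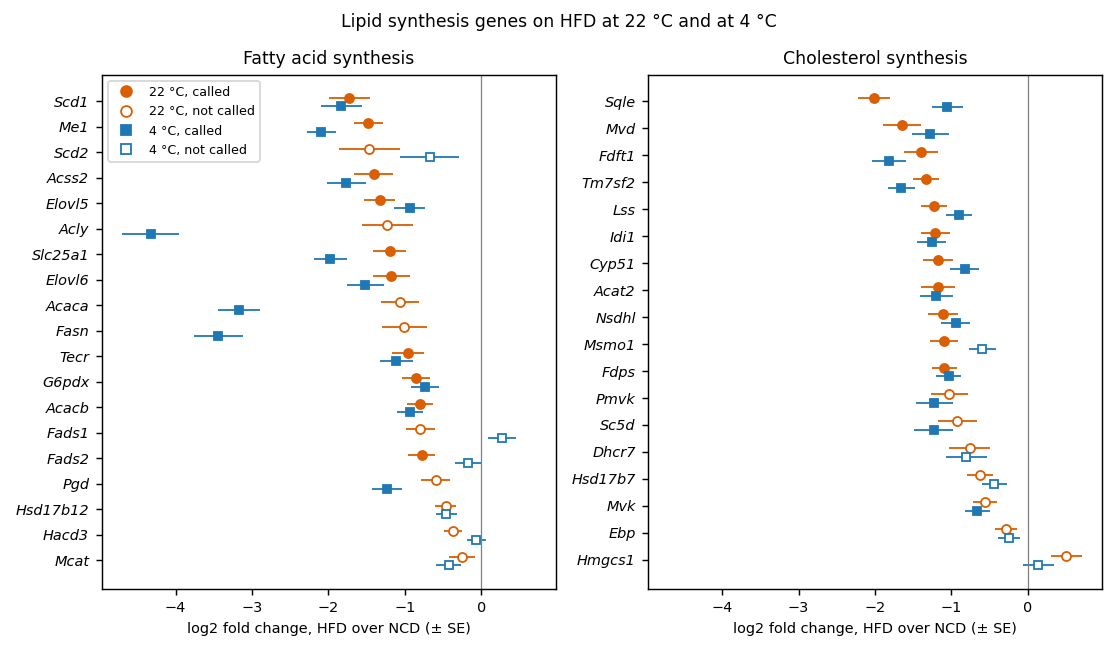
Log2 fold change of HFD over NCD (x axis, with SE) for the genes of fatty acid synthesis (left) and for 18 genes of cholesterol synthesis (right), at 22 °C (orange circles) and at 4 °C (blue squares). Filled symbols are called genes, and all 19 genes on the left and 17 on the right are below 0 at 22 °C.

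Genes of cholesterol synthesis fell as well. Of 20 enzymes from acetoacetyl-CoA to cholesterol, 12 were called lower and none higher, with a median log2 fold change of -1.09, and 19 of 20 values were negative. Sqle, the squalene epoxidase that catalyses the first oxygenation of the sterol branch, was at 44.3, 45.7 and 44.6 CPM on NCD and 15.4, 9.72 and 8.33 CPM on HFD. Its log2 fold change was -2.02 ± 0.21, adjusted p = 0.00116. The NCD libraries lay close together, and the highest HFD library was far below them. The gene is annotated at chr15:59315077-59331192 (GRCm38).

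Mvd, mevalonate diphosphate decarboxylase, was at 18.5, 22.4 and 19.8 CPM on NCD and 8.63, 5.8 and 5.08 CPM on HFD, with a log2 fold change of -1.65 ± 0.25, adjusted p = 0.00786. Lss, which closes the ring system to lanosterol, was at 131, 108 and 121 CPM on NCD and 62.5, 47.9 and 43.1 CPM on HFD, with a log2 fold change of -1.23 ± 0.17, adjusted p = 0.00545. Both groups were separate in these 2 genes. Squalene synthase Fdft1 (-1.40), the sterol reductase Tm7sf2 (-1.34), the isopentenyl diphosphate isomerase Idi1 (-1.21), farnesyl diphosphate synthase Fdps (-1.09) and the methyl sterol oxidase Msmo1 (-1.10) fell on the log2 scale and, like Sqle, Mvd and Lss, were stable. The acetoacetyl-CoA thiolase Acat2 (-1.17), the lanosterol demethylase Cyp51 (-1.17) and the sterol dehydrogenase Nsdhl (-1.11) were called lower but not in all fits that left out 1 library.

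Hmgcs1, a synthase of the early pathway, was the one gene of the list with a positive log2 fold change, 0.50 ± 0.20, adjusted p = 0.221. It was not called, and its groups overlapped. Between 8 (without HFD replicate 2) and 14 (without HFD replicate 1) genes of the list were called lower without 1 library. Within batch 1 the median was -0.96, all 20 genes kept their direction and 2 were called.

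Since these genes moved together, their promoters were searched for letters known from lipogenic promoters: CCAAT, bound by NF-Y, the E-box CACGTG and the sterol element TCACNCCAC, each on both strands and within 250 bases before to 50 after the start. CCAAT was found in 41.1% of 27025 genes with a promoter in the RefSeq table (GRCm38.p6), CACGTG in 8.09% and TCACNCCAC in 1.44%. Only 15 of the 19 fatty acid synthesis genes and 15 of the 20 cholesterol synthesis genes were in this table, under 80% of each list, so a share over either list is void and is not given. Stretches of 90 bases, ending 1 base before the start (12 bases in Insig1), are shown for 4 called genes of sterol synthesis and its control. Genes and stretches were picked for holding matches. Each stretch holds the most matches of any such stretch in the 250 bases before the start. Sequences run 5′ to 3′ on the gene's strand, with CCAAT or its complement ATTGG in capitals, or CACGTG in Insig1.

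Mvd, chr8:122443423-122443512, minus strand: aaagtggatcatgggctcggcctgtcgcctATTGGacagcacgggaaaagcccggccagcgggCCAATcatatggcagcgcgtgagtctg

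Idi1, chr13:8885516-8885605, plus strand: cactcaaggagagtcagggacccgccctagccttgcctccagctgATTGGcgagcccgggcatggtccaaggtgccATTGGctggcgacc

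Lss, chr10:76531515-76531604, plus strand: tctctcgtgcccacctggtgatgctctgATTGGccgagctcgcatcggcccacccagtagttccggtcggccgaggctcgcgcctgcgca

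Insig1, chr5:28071311-28071400, plus strand: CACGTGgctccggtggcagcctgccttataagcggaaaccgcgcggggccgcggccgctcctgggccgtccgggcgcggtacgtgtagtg

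Mvd and Idi1 each held 2 such CCAAT matches in the stretch shown and Lss held 1. The sterol element TCACNCCAC, which was also searched for, was in no stretch shown. The matches are descriptions of the letters, and no binding was measured.

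Of the 14 regulators of lipid synthesis, 1 was called. In this list 13 values were negative and 1 positive, with a median of -0.32, and DESeq2 called 4 genes lower. The sums did not overlap (5209 to 5633 CPM on NCD and 2356 to 3282 CPM on HFD). At 4 °C 4 genes of the list were called lower and none higher. Insig1, which retains the sterol regulatory element-binding proteins in the endoplasmic reticulum and is itself one of their targets, was at 956, 1082 and 1059 CPM on NCD and 451, 431 and 367 CPM on HFD. Its log2 fold change was -1.31 ± 0.19, adjusted p = 0.00719, the groups did not overlap, and the call was stable. The transcription factor genes themselves were not called: the log2 fold change was -0.88 ± 0.37 for Srebf1, -0.31 ± 0.10 for Srebf2 and -0.33 ± 0.15 for Mlxipl, which encodes ChREBP. Thrsp (Spot14), a lipogenic cofactor, had -1.03 ± 0.35, adjusted p = 0.155. The lists of fatty acid synthesis, cholesterol synthesis, regulators and uptake share no gene.

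Fatty acid handling changed in both directions. Of 17 genes of fatty acid uptake and lipoprotein lipolysis, 1 was called higher and 3 lower, with a median of -0.26. Fabp3, the heart-type fatty acid binding protein, was at 347, 341 and 340.0 CPM on NCD and 793, 988 and 1112 CPM on HFD, with a log2 fold change of 1.49 ± 0.18, adjusted p = 0.00226, and was stable. Every HFD library was above every NCD library, and the NCD libraries lay close together. The epidermal-type Fabp5 fell by 1.28 ± 0.22 on the log2 scale (adjusted p = 0.0139), the acyl-CoA synthetase Acsl5 by 1.09 ± 0.18 (adjusted p = 0.0106) and the transporter Slc27a1 by 0.59 ± 0.12 (adjusted p = 0.0308). The call on Acsl5 was lost without HFD replicate 2, that on Fabp5 without NCD replicate 1, HFD replicate 2 or HFD replicate 3, and that on Slc27a1 without replicate 1 or 2 of either diet. The adipocyte-type binding protein Fabp4 (-0.27 ± 0.16, adjusted p = 0.405) and the fatty acid receptor Cd36 (0.36 ± 0.12, adjusted p = 0.155) were not called.

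Among 32 genes of fatty acid oxidation and ketone metabolism, 26 had a positive value, and 2 were called, both higher, with a median of 0.23. At 4 °C the median of this list was -0.19, with 2 genes called higher and 1 lower. Cpt1a, the liver-type carnitine palmitoyltransferase, was at 22.6, 29.5 and 26.8 CPM on NCD and 52.5, 51.4 and 37.3 CPM on HFD (0.84 ± 0.17, adjusted p = 0.0269). Etfa, a subunit of the electron transfer flavoprotein, had a log2 fold change of 0.75 ± 0.16, adjusted p = 0.0357. Neither call was stable, with Etfa called in none of the 6 fits without 1 library (0.69 to 0.79) and Cpt1a only without HFD replicate 3 (range 0.71 to 0.98). The muscle-type Cpt1b, the main form in brown fat, had 0.48 ± 0.13, adjusted p = 0.0908. None of the 79 nuclear genes of the respiratory chain passed the test, and their values were from -0.36 to 0.39.

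Outside β-oxidation, 3 mitochondrial or glycerol genes rose. Idh2, the NADP-dependent isocitrate dehydrogenase of mitochondria, was at 303, 285 and 267 CPM on NCD and 565, 651 and 572 CPM on HFD, with a log2 fold change of 1.06 ± 0.12, adjusted p = 0.0014, and was stable. The mitochondrial carrier Slc25a34 was at 23.5, 12 and 9.62 CPM on NCD and 73.9, 64.6 and 91.4 CPM on HFD, with a log2 fold change of 2.36 ± 0.34, adjusted p = 0.00698, and was stable too. In both genes the groups were well apart. Gk, glycerol kinase, which lets adipocytes reuse glycerol for triglycerides, was at 127, 203 and 176 CPM on NCD and 294, 387 and 360.5 CPM on HFD, with a log2 fold change of 1.04 ± 0.17, adjusted p = 0.0107, a call lost only without HFD replicate 2. It was the one called gene of 17 in triglyceride synthesis. Pyruvate carboxylase Pcx fell (-0.67 ± 0.12, adjusted p = 0.0167), as did the insulin-responsive glucose transporter Slc2a4 (-0.66 ± 0.15, adjusted p = 0.046), the one called gene of 25 in glucose uptake and glycolysis. In that list 20 of 25 values were negative, with a median of -0.31, the sums did not overlap (31390.5 to 36147 CPM on NCD and 24678 to 27706 CPM on HFD), and DESeq2 called 7 genes lower and 1 higher. At 4 °C 11 genes of the list were called lower and 1 higher. The call on Pcx was lost without NCD replicate 1, HFD replicate 2 or HFD replicate 3 (-0.75 to -0.59), and that on Slc2a4 held only without HFD replicate 1 (-0.78 to -0.57) and was lost with batch as a term (-0.66).

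Of 17 thermogenic genes, 1 passed the test. Ucp1 was at 4804, 3789 and 4016 CPM on NCD and 7966, 7105 and 5994 CPM on HFD, so each HFD library was above each NCD library. The log2 fold change was 0.74 ± 0.17, adjusted p = 0.0484, close to the threshold. The summed level of the 12 brown adipocyte markers, which include Ucp1, was 6519.5 to 8117 CPM on NCD and 8558 to 11042 CPM on HFD. Without Ucp1 the sums overlapped, at 2674 to 3318 CPM on NCD and 2578 to 3124 CPM on HFD, and 6 of the 12 genes had positive and 6 negative values, with a median of 0.16. Among the fits without 1 library, the call on Ucp1 held only without HFD replicate 3 and was lost without each of the other 5 libraries (0.61 to 0.84). Ucp1 was also not called with DESeq2's size factors, with only the 6 libraries compared or within batch 1. Nor was it called with replicate number as a block or in a test against the fold threshold. With batch or a muscle score as a term, 1 of the 17 thermogenic genes was called higher. DESeq2, with and without apeglm, called 2 of the 17 higher and 1 lower. Cidea, a lipid droplet protein of brown adipocytes, had -0.31 ± 0.15, adjusted p = 0.283. Elovl3, a brown fat elongase, had -0.82 ± 0.24, adjusted p = 0.105, and Dio2, which activates thyroid hormone in the tissue, had 0.58 ± 0.27, adjusted p = 0.29. No member of the lists of adrenergic and cAMP genes (17 tested), lipid droplet proteins and lipases (16) or glycogen metabolism (14) was called.

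**Figure D3:**
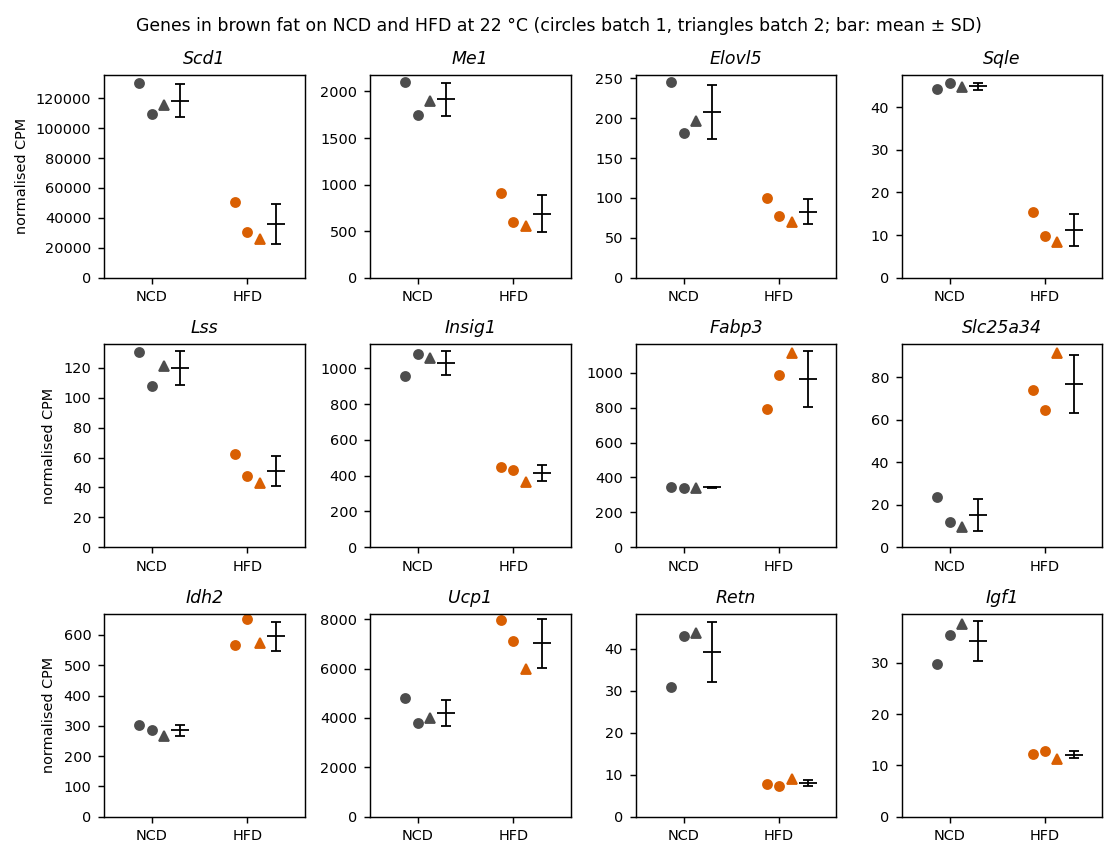
Normalised CPM (y axis, from 0) of 12 genes in the 3 NCD and 3 HFD libraries at 22 °C, with circles for batch 1, triangles for batch 2 and the mean ± SD beside them. HFD libraries are below NCD libraries in Scd1, Me1, Elovl5, Sqle, Lss, Insig1, Retn and Igf1 and above them in Fabp3, Slc25a34, Idh2 and Ucp1, with no overlap in any of the 12.

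Several secreted factors changed. Of 16 adipokine genes, 1 was called higher and 2 lower. Retn, which encodes resistin, was at 31, 43.1 and 43.6 CPM on NCD and 7.73, 7.42 and 8.98 CPM on HFD. Its log2 fold change was -2.28 ± 0.18, adjusted p = 0.000235, the smallest adjusted p of the comparison (shared with other genes), and it was stable. Igf1, the growth factor that adipose tissue also makes, was at 29.9, 35.3 and 37.6 CPM on NCD and 12.2, 12.8 and 11.3 CPM on HFD, with a log2 fold change of -1.50 ± 0.22, adjusted p = 0.00698. The HFD libraries lay close together and below all NCD libraries. Rarres2, the gene of chemerin, was at 32.2, 29.8 and 31.4 CPM on NCD and 51, 60.4 and 48.8 CPM on HFD and rose by 0.78 ± 0.10, adjusted p = 0.0028. Igf1 and Rarres2 were stable. Adiponectin (Adipoq, -0.10 ± 0.17, adjusted p = 0.823) and leptin (Lep, -0.08 ± 0.78, adjusted p = 0.974) were not called, and Lep ranged from 72.5 to 270 CPM within the HFD group.

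Orm1, an acute-phase glycoprotein, was at 165, 138 and 145 CPM on NCD and 47.9, 37.3 and 33.3 CPM on HFD, with a log2 fold change of -1.92 ± 0.20, adjusted p = 0.00116. Trf, transferrin, was at 102, 123 and 181 CPM on NCD and 37.4, 47.1 and 47.4 CPM on HFD, with -1.63 ± 0.25, adjusted p = 0.00887. Esr1, the estrogen receptor α, was at 46, 40.2 and 50.5 CPM on NCD and 11.4, 12.9 and 19.7 CPM on HFD, with -1.63 ± 0.25, adjusted p = 0.00786. It was the one called gene among the 34 listed nuclear receptors and coregulators. That list does not hold the nuclear receptor gene Rorb, which was called and is given below. The groups of Orm1, Trf and Esr1 did not overlap, and all 3 were stable. Orm1 has close copies, Orm2 and Orm3, between which reads can be split. Orm1 was also the one called member of 23 inflammation and acute-phase genes, whose median was 0.33. Npr3, the clearance receptor of natriuretic peptides and a white adipocyte gene, was at 244, 262 and 284 CPM on NCD and 833, 542 and 423 CPM on HFD. It rose by 1.19 ± 0.23, adjusted p = 0.022, but the call was lost without NCD replicate 1, 2 or 3 and without HFD replicate 2 (0.84 to 1.39). Of 15 tested white adipocyte genes, 1 was called higher and 1 lower. In that list 9 values were positive and 6 negative, with a median of 0.10.

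The largest rises among coding genes with a mean of at least 1 CPM over both diets were in genes outside the lists above. Ryr2, the calcium release channel of the cardiac sarcoplasmic reticulum, was at 9.02, 6.8 and 9.87 CPM on NCD and 107, 102 and 127 CPM on HFD. Its log2 fold change was 3.70 ± 0.35, adjusted p = 0.000803, and it is annotated at chr13:11553102-12106945. Hcn2, a hyperpolarisation-activated cation channel, was at 1.24, 2.38 and 2.3 CPM on NCD and 16.2, 20.3 and 19.6 CPM on HFD, with 3.22 ± 0.26, adjusted p = 0.000235. Of the 2 libraries rich in muscle RNA, NCD replicate 2 had the lowest Ryr2 level of its group and HFD replicate 3 the highest of its group. Rorb, an orphan nuclear receptor, had 2.43 ± 0.36, adjusted p = 0.00743. F2r, the thrombin receptor, was at 13, 12.7 and 11.5 CPM on NCD and 40.9, 47.3 and 34.9 CPM on HFD, with 1.73 ± 0.14, adjusted p = 0.000235, and the receptor phosphatase Ptprk had 1.38 ± 0.13, adjusted p = 0.000964. F2r and Ptprk were named for their small p-values and not for the size of the rise. All 5 genes were stable and without overlap.

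Wwc1, the KIBRA protein of the Hippo pathway, was barely detected on NCD, with 0, 2 and 2 counts on NCD and 32, 54 and 49 on HFD. The pooled ratio was 35.7-fold, with a 95% exact Poisson interval of 13.6 to 133 that covers counting error only, and the fitted log2 fold change was 5.13 ± 0.55, adjusted p = 0.00125. The 8 largest rises also held Car12, a carbonic anhydrase (3.44 ± 0.79, adjusted p = 0.0489), Lancl3 (2.76 ± 0.51, adjusted p = 0.0194) and the transcriptional cofactor Eya2 (2.39 ± 0.39, adjusted p = 0.0106), besides Slc25a34 above. Car12, Lancl3 and Eya2 were not stable: Car12 was called in none of the 6 fits without 1 library (3.01 to 3.89) and not with batch as a term, Lancl3 was lost without NCD replicate 1, NCD replicate 2 or HFD replicate 2 (2.43 to 3.19) and Eya2 without NCD replicate 1 or 2 (2.22 to 2.62).

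Among the largest falls, Prune2 was at 219.9, 136 and 145 CPM on NCD and 26, 12.2 and 16.5 CPM on HFD, with a log2 fold change of -3.20 ± 0.38, adjusted p = 0.00227. Ptges, the microsomal prostaglandin E synthase, was at 23.7, 15.4 and 14.9 CPM on NCD and 3.29, 2.72 and 2.57 CPM on HFD, with -2.66 ± 0.28, adjusted p = 0.00116. Mc5r, the melanocortin receptor 5, was at 3.11, 4.82 and 5.29 CPM on NCD and 0.58, 0.418 and 0.678 CPM on HFD, with -2.96 ± 0.40, adjusted p = 0.00493. In each of the 3 genes the highest HFD library was far below the lowest NCD library, and the calls were stable. Mup22, a major urinary protein, had 104, 87 and 675 counts on NCD and 0, 2 and 20 on HFD, with -5.09 ± 0.77, adjusted p = 0.00786, and belongs to a family of near-identical copies. NCD replicate 3 held most of these counts, and the log2 fold change without 1 library ran from -7.25 to -4.44. The other 4 were 1700018G05Rik (-3.52, stable), Dmrtc1a (-3.48), the presynaptic scaffold Bsn (-4.15) and the tight junction protein Tjp3 (-2.77). The calls on Dmrtc1a and Bsn were lost without HFD replicate 2, and that on Tjp3 without HFD replicate 2, HFD replicate 3 or NCD replicate 3.

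The 10 smallest p-values among the stable calls also held Gpx8, a peroxidase of the endoplasmic reticulum, at 52.9, 50 and 55.4 CPM on NCD and 20.1, 16.2 and 16.8 CPM on HFD (-1.58 ± 0.14, adjusted p = 0.000597), the JNK scaffold Mapk8ip1 (-1.58 ± 0.15, adjusted p = 0.000755) and the mitochondrial carbonic anhydrase Car5b at 98.5, 89.6 and 86.6 CPM on NCD and 34.3, 26 and 25.9 CPM on HFD (-1.67 ± 0.17, adjusted p = 0.00116). All 3 fell. The list was completed by Ryr2, Hcn2, F2r, Ptprk, Retn and 2 noncoding genes given next.

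Of 3433 lncRNA genes tested, 44 were called, 32 higher and 12 lower. The RNAcentral gene QNCMUSG00058145 was at 8.83, 7.09 and 6.49 CPM on NCD and 0.773, 0.575 and 0.452 CPM on HFD, with a log2 fold change of -3.67 ± 0.28, adjusted p = 0.000235, and QNCMUSG00029696 was at 17.7, 19.1 and 16.5 CPM on NCD and 8.05, 4.91 and 5.14 CPM on HFD, with -1.57 ± 0.16, adjusted p = 0.00116. Both were stable and separate between the diets. 2700046G09Rik had 37, 29 and 100 counts on NCD and 0, 0 and 0 on HFD, at least 14.8-fold lower on HFD when the HFD libraries are set at 3 counts each. Its adjusted p was 0.0416, and the call was lost in each fit without 1 library and with batch as a term. Gm32468 (-2.78 ± 0.55, adjusted p = 0.0275) and Gm47818 (-3.20 ± 0.73, adjusted p = 0.0489) were lower, and both calls were likewise lost in all 6 of these fits (-3.05 to -2.58 and -3.44 to -2.93).

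Among lncRNA genes that rose, Gm33838 was at 0.373, 0.291 and 0.294 CPM on NCD and 1.55, 2.09 and 2.34 CPM on HFD, with 2.65 ± 0.37, adjusted p = 0.00534, and QNCMUSG00029803 at 0.933, 0.756 and 0.563 CPM on NCD and 3.61, 4.18 and 3.13 CPM on HFD, with 2.30 ± 0.30, adjusted p = 0.00367. Both were stable. Gm33699 (2.10 ± 0.48, adjusted p = 0.0489) and QNCMUSG00029095 (2.05 ± 0.47, adjusted p = 0.0484) were called in 1 of the 6 fits without 1 library (1.36 to 2.50 and 1.61 to 2.32), Gm33699 only without HFD replicate 1 and QNCMUSG00029095 only without HFD replicate 3. QNCMUSG00029095 was also not called with batch as a term. Lncbate10, a lncRNA known from brown fat and named here after its values were seen, had 1.57 ± 0.21, adjusted p = 0.00472 and was stable. Gm15551, the adipose lncRNA that the study followed up, was at 5.04, 4.24 and 3.38 CPM on NCD and 4.25, 3.19 and 1.04 CPM on HFD, with -0.59 ± 0.49, adjusted p = 0.567. It was not called, and the groups overlapped.

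Redox and sterol transport genes moved singly. Of 31 antioxidant genes, 1 was called higher and 2 lower. Gss, glutathione synthetase, rose, with a mean ± SD of 13.8 ± 1.08 CPM on NCD and 30.1 ± 4.38 CPM on HFD (1.12 ± 0.14, adjusted p = 0.0028), while Gclm, the modifier subunit of the enzyme one step before it, fell (-0.71 ± 0.12, adjusted p = 0.0128), as did thioredoxin Txn1 (-0.68 ± 0.15, adjusted p = 0.0431). Gss overlaps Acss2, which fell, on the opposite strand of chromosome 2, and whether the counting used strand is not given in the sources used here. Gss was stable, Gclm was lost without NCD replicate 2, and Txn1 held only without NCD replicate 3 (-0.83 to -0.53). Of 13 genes of cholesterol uptake and efflux, the receptor Lrp1 rose (0.69 ± 0.13, adjusted p = 0.0237) and the lysosomal sterol carrier Npc2 fell (-0.97 ± 0.17, adjusted p = 0.0162). The call on Lrp1 was lost without NCD replicate 1, NCD replicate 2, HFD replicate 2 or HFD replicate 3 (0.55 to 0.76), and that on Npc2 without NCD replicate 1, HFD replicate 2 or HFD replicate 3 (-1.09 to -0.89).

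The remaining lists held single calls or none. Lower were Slc25a44, the mitochondrial carrier of branched-chain amino acids (-0.73 ± 0.16, adjusted p = 0.0385), and the retinal dehydrogenase family member Aldh1a7 (-1.01 ± 0.22, adjusted p = 0.0379). Both were called only without HFD replicate 1. Higher were cathepsin Z, Ctsz (0.87 ± 0.15, adjusted p = 0.0139), the interferon-stimulated Ifi27l2a (0.84 ± 0.16, adjusted p = 0.0206) and the matrix metalloproteinase Mmp12 (1.76 ± 0.40, adjusted p = 0.0484). The call on Ctsz was lost without NCD replicate 1, NCD replicate 3 or HFD replicate 2, that on Ifi27l2a without replicate 1 or 2 of either diet, and that on Mmp12 in all 6 fits and with batch as a term. None of the 32 collagen chains (median -0.34), 15 heat shock genes (0.21), 27 genes of the unfolded protein and stress response (0.13), 26 cell cycle genes (0.06), 19 clock genes (0.06) or 56 ribosomal proteins (-0.07) was called.

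Markers of other cell types were examined with the same test. Of 16 endothelial genes, 15 had a positive log2 fold change, with a median of 0.47, and 1 was called. Pecam1 (CD31) was at 118, 108 and 115 CPM on NCD and 196, 206 and 158 CPM on HFD, with 0.72 ± 0.11, adjusted p = 0.00786, and was stable. The summed endothelial level was 968 to 1097 CPM on NCD and 1290 to 1596 CPM on HFD, so the groups did not overlap. The vascular receptors Kdr (0.52 ± 0.18, adjusted p = 0.149) and Flt1 (0.49 ± 0.18, adjusted p = 0.169) did not pass the test.

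Ighm, the heavy chain of IgM, was at 8.71, 11 and 7.27 CPM on NCD and 73.7, 66 and 33.9 CPM on HFD, with a log2 fold change of 2.69 ± 0.37, adjusted p = 0.00534, and was stable. It was the one called gene of 6 tested B and plasma cell genes. Of that list, Ms4a1, Cd79b, Cd22 and Jchain had mean levels below 1 CPM in both groups, and the list summed to 9.59 to 13.3 CPM on NCD and 36.8 to 78.4 CPM on HFD. Most of this sum was Ighm, and without Ighm it was 2.32 to 2.36 CPM on NCD and 2.96 to 4.76 CPM on HFD. S100b, a Schwann cell gene that other cells also express, was at 90.1, 72.7 and 73 CPM on NCD and 234, 259.9 and 174 CPM on HFD and rose by 1.50 ± 0.24, adjusted p = 0.0104, a call lost without NCD replicate 2, NCD replicate 3 or HFD replicate 2 (1.38 to 1.65). It was the one called gene of 10 tested Schwann cell and nerve genes, of which 4 had positive and 6 negative values, with a median of -0.30. None of 23 macrophage genes was called (median 0.07), and their sums overlapped, with 213 to 263 CPM on NCD and 214 to 304 CPM on HFD. The lists of pericytes, fibroblasts, mast cells and red blood cells also held no call, although the sum of 9 listed mast cell genes was 46.4 to 59.7 CPM on NCD and 18.2 to 30.8 CPM on HFD. This followed Kit (-1.53 ± 0.43, adjusted p = 0.097), since the other 6 tested mast cell genes had positive values, the list's median was 0.70, and without Kit the sum was 5.43 to 7.27 CPM on NCD and 7.40 to 11.6 CPM on HFD. Trf, described above, was also the one called gene of 4 tested liver markers, of which albumin (Alb) had means of 1.44 and 0.915 CPM. Whether a change in the share of endothelial or other cells had a part in any result was not tested.

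**Figure D4:**
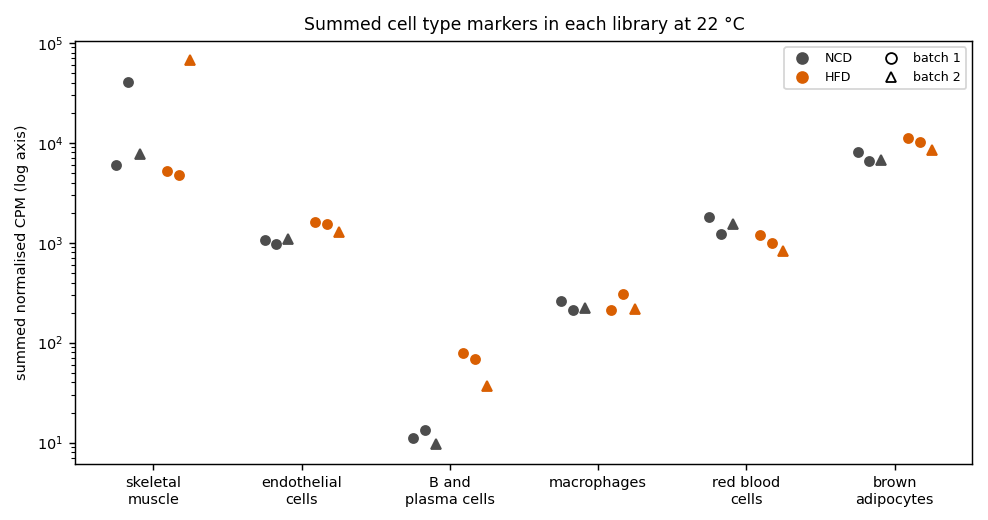
Summed normalised CPM (log y axis) of 6 marker lists in each library at 22 °C, NCD in grey and HFD in orange, with circles for batch 1 and triangles for batch 2. Muscle RNA is high in 1 library of each diet, and the macrophage sums of the diets overlap. Endothelial and B cell sums are higher in all 3 HFD libraries, and the B cell sum is mostly the single gene Ighm.

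The same diet contrast in the 6 libraries kept at 4 °C compares other libraries than the one at 22 °C. Both contrasts came from 1 fit with a shared estimate of the spread of each gene, so their calls are not independent. With only its own 6 libraries in the fit, the contrast at 4 °C gave 149 calls. In the fit of all 12 libraries, 345 genes (2.06%) were called higher and 450 (2.69%) lower at 4 °C. There, 25.2% of all tested genes did not overlap between the diets. Of the 166 genes called higher at 22 °C, 157 had the same direction at 4 °C (94.6%, against 51.8% of all tested genes), and 65 were also called (39.2% of the 166 and 18.8% of the 345). Of the 183 genes called lower, 180 had the same direction (98.4%, against 48.2% of all), and 104 were also called (56.8% of the 183 and 23.1% of the 450). No gene was called in opposite directions. At 4 °C, the genes called higher at 22 °C had a median log2 fold change of 0.57 and those called lower one of -0.84. At 22 °C, where the calls fix the values, these medians were 0.95 and -1.09. Of the 84 stable genes, 82 had the same direction and 53 were called at 4 °C.

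Ryr2 rose by 3.0 at 4 °C on the log2 scale (adjusted p = 0.00133), Hcn2 by 2.94 (0.000295), F2r by 2.15 (9.19e-05) and Wwc1 by 4.88 (0.000637). The log2 fold change at 4 °C was -3.37 for Prune2 (adjusted p = 0.00143), -1.90 for Orm1 (0.000875), -1.51 for Insig1 (0.00233) and -1.83 for Scd1 (0.00429). In the synthesis lists, 13 of 19 fatty acid genes and 14 of 20 cholesterol genes were called lower at 4 °C, with medians of -1.11 and -0.97, and none higher.

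The difference of the diet effect between the temperatures was tested as an interaction. By the quasi-likelihood test of edgeR, 0 genes had an adjusted p under 0.05. The smallest adjusted p was 0.0566, 1091 genes had an unadjusted p under 0.05, and DESeq2 gave 62 genes. Retn fell by 2.28 at 22 °C, and its value at 4 °C was -0.82 (adjusted p = 0.0252), with an adjusted interaction p of 0.16. Igf1 was at -1.50 and -0.03, with an adjusted interaction p of 0.339. Slc25a34 was at 2.36 and 0.40 (adjusted p of the interaction 0.475), Ucp1 at 0.74 and -0.30 (0.475) and Mup22 at -5.09 and -0.84 (0.475). In the other order, and named here after their values were seen, Acly was at -1.23 and -4.32 (0.0979), Fasn at -1.01 and -3.44 (0.166) and Acaca at -1.06 and -3.17 (0.16). These differences failed the correction for multiple tests.

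**Figure D5:**
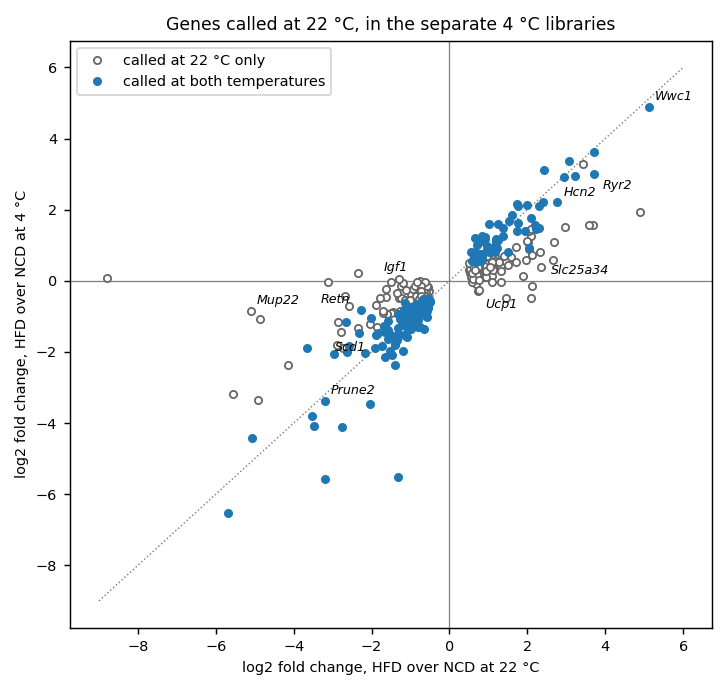
Log2 fold change of HFD over NCD at 22 °C (x axis) and at 4 °C (y axis) for the 349 genes called at 22 °C, filled where also called at 4 °C, with the dotted line marking equal values. The sign is the same at both temperatures for 157 of the 166 genes called higher and 180 of the 183 called lower, and Ryr2, Hcn2, Wwc1 and Prune2 lie near the line.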

How the data were processed

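Total RNA of mouse iBAT was depleted of ribosomal RNA, prepared with TruSeq kits and sequenced paired-end. The authors trimmed reads with cutadapt and quantified them with salmon against GENCODE M22 and RNAcentral 5 transcripts (GRCm38). The authors deposited estimated counts per gene as whole numbers, neither normalised nor pooled. The 61210 rows of all 12 libraries were filtered with edgeR's filterByExpr (minimum count 10), scaled by TMM and fitted as 4 group means with edgeR 4.0.16 (R 4.3.3). HFD and NCD were compared at 22 °C by the quasi-likelihood F-test with Benjamini-Hochberg adjustment over 16737 genes, and SEs were derived from the F statistic. Precision is limited by 3 libraries per group, of which replicates 1 and 2 are batch 1. The test code was run on counts simulated from the fitted means and spread, without batches or muscle-rich libraries. That run checks the code and gives no support to the calls.

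Genes named are, for rises and falls alike, the 8 largest coding changes and the 4 largest lncRNA changes (mean of at least 1 CPM), the 10 smallest p-values among stable calls, called list members (at most 5 a direction, otherwise up to 3 by level) and Ucp1, Cidea, Dio2, Elovl3, Lep, Adipoq and Gm15551. Some list members enter the counts but are not reported here by name. Other members are named to complete a list, after their values were seen. Genes, lists and tests were chosen with earlier results of these data known. Alternatives comprised DESeq2 1.42.0 with and without apeglm 1.24.0, other filters and scalings, batch, block or muscle terms, and subsets of the libraries.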

Additional observations from a re-analysis of the deposited data

How the results depend on the processing

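All 349 genes called at 22 °C kept their direction under each alternative in which they could be fitted (345 with a mean of at least 10 counts, 342 with only the 6 libraries compared). The number of calls depended on the setting. For 349 called genes in all, a test against the fold threshold (glmTreat) gave 70, of them 27 higher and 43 lower. A muscle score as a term gave 529, of them 287 lower. Batch 1 alone gave 42, with 25 higher and 17 lower. DESeq2 gave 826 (394 higher, 432 lower) and with apeglm 852 (435 and 417). Without 1 library, the count ran from 117 to 286, the higher genes from 54 to 122 and the lower genes from 62 to 187. The 44 lncRNA calls became 11 with glmTreat, 81 without a filter on counts, 6 in batch 1, 121 with DESeq2 and 170 with apeglm, and 14 to 34 without 1 library.

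The 10 calls in fatty acid synthesis became 2 with glmTreat, 6 with only the 6 libraries compared, 0 in batch 1 and 16 with DESeq2, also with apeglm, and 2 to 13 without 1 library. The 12 calls in cholesterol synthesis became 4 with glmTreat, 2 in batch 1 and 8 to 14 without 1 library. At 4 °C, where 795 genes were called, glmTreat gave 155, only the 6 libraries compared 149, batch 1 alone 53, DESeq2 1316, apeglm 1222, and leaving out 1 library 239 to 992. The interaction, with 0 calls, gave 27 without a filter, 1 with the replicate block, 10 with the muscle score, 62 with DESeq2 and 0 to 22 without 1 library. Of lists with 0 calls at 22 °C, DESeq2 called 4 red blood cell genes and 3 collagen chains lower, 2 adrenergic and cAMP genes higher, and 1 gene each lower in glycogen metabolism, the clock, the cell cycle and the mast cells. It called 0 genes of the respiratory chain, the ribosome, macrophages, skeletal muscle and heat shock proteins. The cause of these changes was not tested, except that fewer libraries enter some of the fits.

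Replicate numbers were taken as a block only as an alternative, since same-numbered libraries of the 2 diets did not deviate together at 22 °C in every pair (correlations of 0.365, -0.18 and -0.0385). With the replicate block 462 genes were called, 316 of the 349 among them. Whether depth limited the calls was not tested, and 3033 genes had an unadjusted p under 0.05 at 22 °C.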
